A study of Mus musculus with 44 samples.

Results

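Cells of CH12.LX, which derive from a B cell lymphoma of the mouse, were compared after 8 h in TCDD (2,3,7,8-tetrachlorodibenzo-p-dioxin) and after 8 h in its vehicle, dimethyl sulfoxide (DMSO). The comparison takes all 4 arrays of each of these groups, 8 of the 44 arrays in the series, chosen by their labelled treatment and time. TCDD cells received 10 nM TCDD, vehicle cells received 0.01% DMSO, and both were activated with lipopolysaccharide (LPS) from Salmonella typhosa, a component of the bacterial outer membrane and an activator of B cells. Untreated cells were harvested at 0 h, and the other groups are TCDD and vehicle cells at 12, 24, 36 and 48 h. The line was plated at 100000 cells per ml, wells of 1 treatment were pooled, and each of the 4 replicates was treated and harvested on its own day. Replicate 1 with TCDD and replicate 1 with DMSO therefore share a day, and so on. CH12.LX is a single lymphoma line, so the replicates are cultures of the same cells.

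TCDD is a slowly metabolised ligand of the aryl hydrocarbon receptor (AhR). The receptor rests in the cytosol bound to chaperones, moves into the nucleus when a ligand binds, pairs there with ARNT and acts on genes through DNA elements with the core GCGTG. Genes of xenobiotic metabolism, foremost Cyp1a1, are its best known targets. In B cells TCDD is known as an inhibitor of the antibody response. B cells become antibody-secreting plasma cells as Prdm1 and Xbp1 come on and as factors that hold the B cell state, such as Pax5 and Bach2, are lost.

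Levels are given as log2 of the normalized array signal plus 16, with 4 as the lowest possible value, and only within a gene, since signals of different probe sets cannot be set against each other. Differences are TCDD minus DMSO on that scale, which understates changes of dim genes, with the standard error (SE) of a fit over all 44 arrays and 4 arrays per group. Values of single arrays run in the order of replicates 1 to 4. Median signals of the 8 arrays as deposited ran from 46.9 to 65.9, and arrays of the same group correlated with r from 0.972 to 0.985. Since RNA came from whole cultures, fewer cells of a kind and less RNA per cell cannot be told apart.

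At 8 h the known AhR targets were higher with TCDD, and the genes of the receptor complex did not pass the test. Cyp1a1, a cytochrome P450 that oxidises aromatic hydrocarbons, had log2 signals of 13.38, 13.40, 13.29 and 13.42 with TCDD, against 7.81, 8.14, 8.35 and 8.32 with DMSO. The TCDD arrays had an SD of 0.06 (n = 4), and every one of them was far above the vehicle arrays. The difference of 5.21 ± 0.19 (SE; adjusted p = 1.69e-21) is 37.1-fold on the signal plus 16 scale. Vehicle cells were themselves above the untreated cells, whose Cyp1a1 signals ran from 5.56 to 6.60. Tiparp, an ADP-ribosyltransferase that restrains the receptor, had 13.04, 13.05, 12.99 and 13.09 with TCDD, against 11.24, 11.53, 11.71 and 11.69 with DMSO (1.50 ± 0.10, adjusted p = 6.77e-13). Here too the groups lay apart, and the other 2 probe sets of Tiparp gave 1.58 each.

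Ahrr encodes the AhR repressor. Its log2 signals were 8.85, 8.69, 8.96 and 8.99 with TCDD, against 6.81, 7.24, 7.19 and 7.03 with DMSO (1.81 ± 0.20, adjusted p = 6.28e-08). Cyp1b1, a second cytochrome P450 of the same family, had 8.20, 8.31, 8.10 and 7.85 with TCDD, against 6.97, 6.66, 6.28 and 6.50 with DMSO (1.51 ± 0.34, adjusted p = 0.00504). Nqo1, a quinone reductase, had 8.69, 8.62, 9.06 and 9.10 with TCDD, against 7.47, 7.67, 8.10 and 8.32 with DMSO (0.98 ± 0.25, adjusted p = 0.0141). The groups of all of these genes lay apart, and the days with the higher Nqo1 signals were the same in both groups.

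Of 12 AhR target genes looked for, 10 were measured and 7 had signals above the filter on dim genes. Of these 7, 5 were called higher and 0 lower, with a median difference of 1.50. Of all 11970 genes tested, 2.75% were called higher and 1.4% lower, and the median difference was -0.009. The 2 that did not pass were Cyp2s1 (0.96, adjusted p = 0.189) and Nfe2l2, the antioxidant response factor (0.26, adjusted p = 0.342). By limma, 0 of 8 measured genes of the AhR complex passed, 0 also at an unadjusted p under 0.05 and 0 with the replicate block. Ahr had 11.58, 11.36, 11.64 and 11.85 with TCDD, against 11.81, 11.71, 11.98 and 12.01 with DMSO, lower on each day but with overlapping groups (-0.27 ± 0.16, adjusted p = 0.498). Arnt differed by 0.24 ± 0.21 (adjusted p = 0.743). The call of Cyp1b1 was lost without day 2 (1.47) and without day 3 (1.41), that of Nqo1 in 7 of 12 fits that left out 1 day or 1 array (0.84 to 0.99), and the list then kept 3 or more called members. These 12 fits held no block for days. With the replicate block over all arrays, Nqo1 had an adjusted p of 3.7e-06 by limma.

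**Figure D1:**
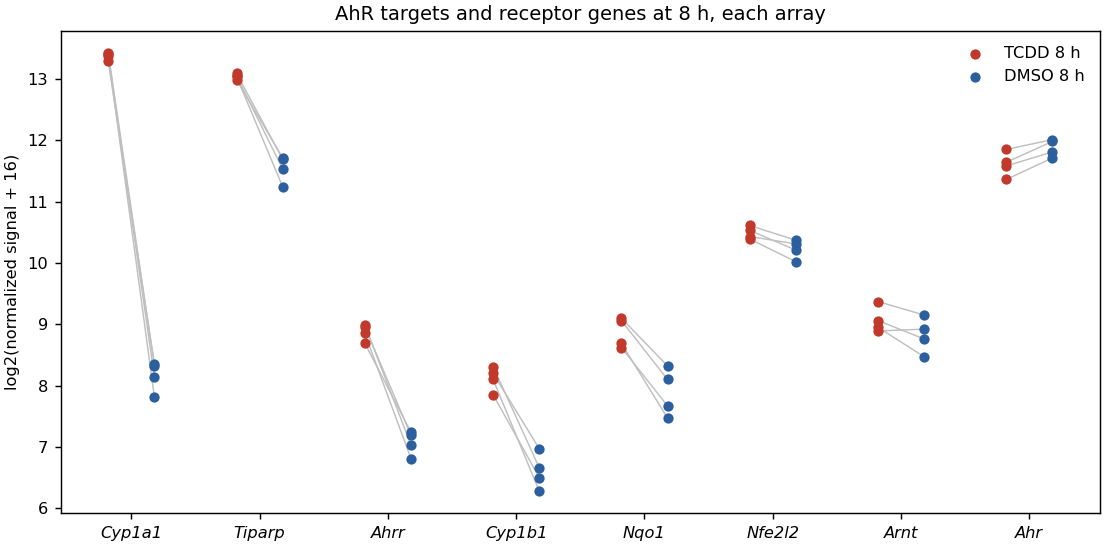
Log2(normalized signal + 16) of 8 AhR-related genes on each array (vertical axis), TCDD 8 h in red on the left and DMSO 8 h in blue on the right of each gene, with grey lines joining arrays of the same day. All TCDD arrays lie above all DMSO arrays for Cyp1a1, Tiparp, Ahrr, Cyp1b1, Nqo1 and Nfe2l2, of which Nfe2l2 did not pass the test, and the groups overlap for Arnt and Ahr.

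Across all genes, 497 of 11970 (4.15%) passed an adjusted p of 0.05, 329 higher and 168 lower with TCDD. Rises were larger than falls. The median rise was 0.72 and the median fall 0.51 on the log2 scale, 101 rises and 18 falls were over 2-fold, and 9 rises but 0 falls were over 4-fold. In 327 of the 329 genes called higher the TCDD array was above the vehicle array on all 4 days, where it was in 17.3% of all genes tested. In 309 the groups did not overlap, where 5.83% of all genes tested had all TCDD arrays above all DMSO arrays. Of the 168 genes called lower, 167 were lower on all 4 days, against 17.9% of all genes tested. In 158 of them the groups did not overlap, against 4.6% of all genes tested. The calls rest on these same arrays, so agreement between days is favoured among the genes called. Vehicle levels of 36 genes called higher averaged below the filter on dim genes, at 6.21, so that their rises start near the background of the array. With the replicate number as a block, which removes differences between days, 589 genes (4.92%) were higher and 415 (3.47%) lower, and all 329 and all 168 were among them. With only the 8 arrays the fit called 228 higher and 84 lower, and without day 2 it called 168 and 68.

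**Figure D2:**
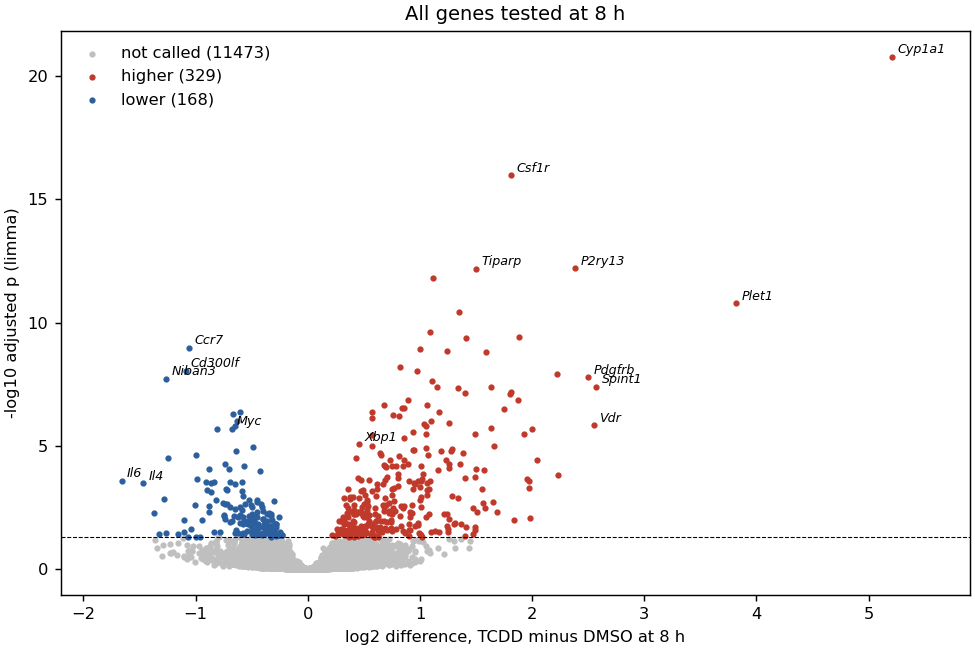
Each point is 1 of the genes tested, placed by its log2 difference, TCDD minus DMSO at 8 h (horizontal), and by -log10 of its limma adjusted p (vertical), with a dashed line at the threshold of 0.05. The 329 genes called higher reach 5.21 on the right, while the 168 called lower end at -1.66 on the left.

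The largest rises after Cyp1a1 were those of a surface protein, a protease inhibitor, a nuclear receptor and several membrane receptors. Plet1 encodes a membrane-anchored surface protein known from the placenta and from epithelia. It had 8.77, 9.36, 8.67 and 9.22 with TCDD, against 5.65, 5.64, 4.54 and 4.91 with DMSO, which is near the background (3.82 ± 0.30, adjusted p = 1.64e-11). One of its other probe sets gave 2.99 and the other 1.22, the second without a call (adjusted p = 0.114). Spint1 encodes an inhibitor of membrane serine proteases. Its signals were 8.80, 9.17, 9.41 and 9.85 with TCDD, against 6.50, 6.67, 6.98 and 6.77 with DMSO (2.57 ± 0.28, adjusted p = 4.04e-08). St14, the gene of matriptase, a serine protease that the Spint1 product inhibits, had 9.91, 10.14, 10.09 and 10.04 with TCDD, against 7.89, 7.96, 8.70 and 8.13 with DMSO (1.87 ± 0.22, adjusted p = 1.38e-07). Enzyme and inhibitor were thus both higher on all 4 days, with no overlap of the groups.

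Vdr, the vitamin D receptor, had 8.85, 9.12, 9.37 and 9.61 with TCDD, against 5.43, 6.43, 7.33 and 7.56 with DMSO. Both groups were lowest on day 1 and highest on day 4, and the difference was 2.55 ± 0.33 (adjusted p = 1.46e-06). It was the 1 gene called among 18 kept nuclear receptors (5.56%, where 2.75% of all genes tested were called higher). Pdgfrb, a receptor for platelet-derived growth factor, had 8.38, 8.81, 8.97 and 8.73 with TCDD, against 6.21, 6.23, 6.21 and 6.25 with DMSO (2.50 ± 0.26, adjusted p = 1.68e-08). Csf1r, the receptor for colony stimulating factor 1, had 10.31, 10.47, 10.62 and 10.51 with TCDD, against 8.59, 8.58, 8.78 and 8.70 with DMSO (1.81 ± 0.09, adjusted p = 1.06e-16). After Cyp1a1 it had the smallest p of the genes named here, and its other 2 probe sets gave 1.33 and 1.02.

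P2ry13 and P2ry14, neighbouring genes that encode nucleotide receptors, were also among the 15 largest rises. P2ry13, a receptor for ADP, had 10.36, 10.51, 10.45 and 10.46 with TCDD, against 7.95, 8.02, 8.12 and 8.17 with DMSO (2.38 ± 0.16, adjusted p = 6.25e-13). P2ry14, a receptor for UDP-sugars, had 8.18, 8.63, 8.41 and 8.30 with TCDD, against 6.29, 6.28, 6.13 and 5.95 with DMSO (2.22 ± 0.23, adjusted p = 1.26e-08). The groups of both genes lay apart by more than the spread within either.

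The promoters of the 5 genes with the largest rises that the RefSeq promoter table holds on a printable chromosome are shown with the core of the AhR element marked. Each line is the 250 bases before the annotated start in GRCm38.p6, read 5′ to 3′ on the strand of the gene. Capitals mark GCGTG or its reverse complement CACGC. Cyp1a1 lies at chr9:57697363-57697612 on the plus strand, Plet1 at chr9:50494275-50494524 on the plus strand, Spint1 at chr2:119237110-119237359 on the plus strand, Vdr at chr15:97908297-97908546 on the minus strand and P2ry13 at chr3:59210883-59211132 on the minus strand.
Cyp1a1: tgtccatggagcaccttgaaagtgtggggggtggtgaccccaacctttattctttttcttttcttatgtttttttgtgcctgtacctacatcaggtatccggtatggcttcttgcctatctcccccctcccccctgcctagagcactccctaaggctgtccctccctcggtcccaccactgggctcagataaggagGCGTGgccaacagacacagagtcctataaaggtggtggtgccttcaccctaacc
Plet1: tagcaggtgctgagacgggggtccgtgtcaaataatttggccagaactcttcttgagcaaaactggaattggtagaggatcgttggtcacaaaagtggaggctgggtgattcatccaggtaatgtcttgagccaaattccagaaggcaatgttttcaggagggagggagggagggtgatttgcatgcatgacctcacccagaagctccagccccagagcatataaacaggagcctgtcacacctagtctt
Spint1: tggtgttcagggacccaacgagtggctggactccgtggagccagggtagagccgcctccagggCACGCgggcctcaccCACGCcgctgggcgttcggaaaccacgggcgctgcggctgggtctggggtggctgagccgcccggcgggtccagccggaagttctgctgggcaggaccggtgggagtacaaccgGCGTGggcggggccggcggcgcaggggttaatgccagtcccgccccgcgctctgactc
Vdr: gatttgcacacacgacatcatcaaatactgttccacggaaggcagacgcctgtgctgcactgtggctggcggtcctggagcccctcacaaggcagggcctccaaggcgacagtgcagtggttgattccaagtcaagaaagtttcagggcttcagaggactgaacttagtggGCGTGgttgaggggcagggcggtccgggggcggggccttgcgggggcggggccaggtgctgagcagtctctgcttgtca
P2ry13: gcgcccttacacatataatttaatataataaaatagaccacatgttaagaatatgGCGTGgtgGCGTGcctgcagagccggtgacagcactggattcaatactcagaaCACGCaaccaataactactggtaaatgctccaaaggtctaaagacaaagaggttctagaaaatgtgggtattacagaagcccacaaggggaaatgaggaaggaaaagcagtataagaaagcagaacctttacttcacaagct

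In the Cyp1a1 promoter the core begins 54 bases before the start, and in that of Vdr 79 bases before it. Spint1 and P2ry13 each hold 3 matches, and the Plet1 window holds none. The core is short and common: it stood, on either strand, in 51.6% of 343 promoters of genes called higher, in 48.9% of 176 promoters of genes called lower and in 48.8% of all 12359 promoters of genes tested, counted over 300 bases from 250 before to 50 after the start. The longer form TNGCGTG, which contains the core, stood in 10.5%, 10.2% and 7.84% of the same promoters. A promoter was found for 261 of the 329 genes called higher and for 132 of the 168 called lower, and elements farther away were not searched.

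Among the other genes of the 15 largest rises were several tied to the actin skeleton, to prostaglandins and to kinase control. Fhod3, a formin that builds actin filaments, had 7.54, 7.68, 7.00 and 7.42 with TCDD, against 5.85, 5.98, 4.55 and 4.34 with DMSO (2.23 ± 0.38, adjusted p = 0.000155). Shroom3, an actin-binding protein of epithelial shape, had 7.38, 7.28, 6.98 and 6.66 with TCDD, against 5.42, 5.63, 4.63 and 4.48 with DMSO (2.04 ± 0.32, adjusted p = 3.86e-05). Its other probe sets lay below the filter on dim genes and were not called. Ptgs2, the inducible cyclooxygenase of prostaglandin synthesis, had 11.33, 11.28, 11.45 and 11.63 with TCDD, against 9.18, 9.13, 9.63 and 10.02 with DMSO (1.93 ± 0.26, adjusted p = 3.18e-06). Both groups were above the untreated cells, where Ptgs2 ran from 5.60 to 6.52. Erich6 (2.00 ± 0.27), the small proline-rich gene Sprr2f (1.97 ± 0.35) and the myosin light chain gene Myl10 (1.97 ± 0.37) were also higher on all days. Dusp5, a phosphatase that switches off ERK kinases, rose by 1.98 ± 0.47 (adjusted p = 0.00842), a call that was lost without day 2, without day 3 and without the DMSO array of replicate 2 (1.61 to 2.12).

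**Figure D3:**
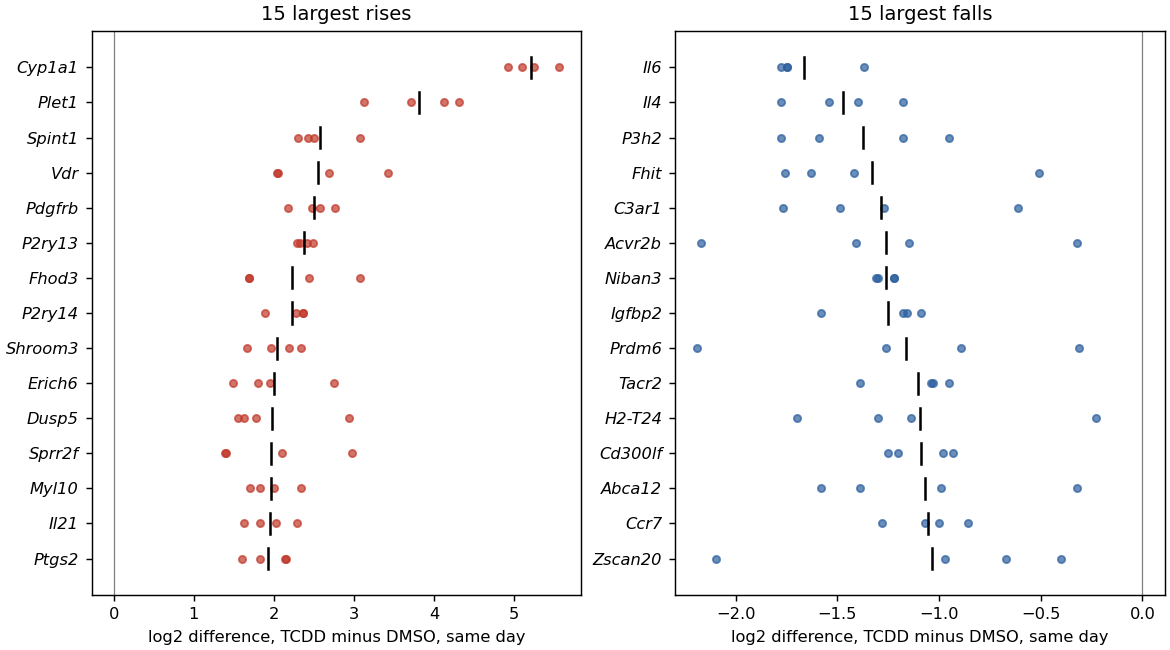
Log2 difference of each same-day pair, TCDD minus DMSO (horizontal axis), for the 15 genes with the largest rises (left, red) and the 15 with the largest falls (right, blue), with a black bar at the mean of the 4 pairs. No pair crosses 0, by the choice of these genes, and the pairs of P2ry13 and Niban3 lie close together while those of Acvr2b, Prdm6 and Zscan20 spread from near 0 to beyond -2.

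Falls were led by cytokine genes. Il6, an inflammatory cytokine that LPS induces, had 8.47, 7.81, 7.96 and 8.30 with TCDD, against 9.84, 9.56, 9.74 and 10.05 with DMSO. The groups lay apart on every day (-1.66 ± 0.30, adjusted p = 0.000267), and both lay above the untreated cells, at 4.86 to 5.20. Il4, the cytokine that drives B cell class switching to IgE, had 7.42, 7.64, 8.25 and 7.96 with TCDD, against 8.60, 9.03, 9.79 and 9.73 with DMSO (-1.47 ± 0.27, adjusted p = 0.000329). Other cytokine genes were higher. Il21, a cytokine that acts on B cells, had 6.59, 6.95, 6.66 and 6.45 with TCDD, against 4.76, 5.32, 4.37 and 4.42 with DMSO (1.95 ± 0.34, adjusted p = 0.000219). Ifng, the gene of interferon gamma, had 10.12, 10.52, 11.35 and 11.07 with TCDD, against 8.89, 9.21, 10.21 and 9.79 with DMSO (1.24 ± 0.32, adjusted p = 0.0179). Its groups overlapped, since day 3 was high in both, and its call was lost in 6 of 12 fits that left out 1 day or 1 array (1.03 to 1.23). Of 31 kept cytokine and chemokine genes these 4 were called, 6.45% in each direction, against 2.75% higher and 1.4% lower of all genes tested. With the replicate block, where 4.92% of all genes tested were higher and 3.47% lower, 3 were higher and 5 lower. Il10, an anti-inflammatory cytokine, differed by -0.10 ± 0.09 (adjusted p = 0.732).

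Among the other large falls, Niban3 had 9.47, 9.44, 9.59 and 9.90 with TCDD, against 10.78, 10.66, 10.89 and 11.12 with DMSO (-1.26 ± 0.13, adjusted p = 1.88e-08). Cd300lf, an inhibitory surface receptor, had 9.14, 8.91, 9.13 and 8.94 with TCDD, against 10.08, 10.16, 10.11 and 10.14 with DMSO (-1.09 ± 0.11, adjusted p = 8.94e-09). Ccr7, the chemokine receptor that guides lymphocytes into lymph nodes, had 11.81, 11.83, 11.91 and 11.80 with TCDD, against 12.67, 12.83, 12.99 and 13.08 with DMSO (-1.06 ± 0.10, adjusted p = 1.05e-09). These 3 falls were even across days, and their groups lay well apart. C3ar1, the receptor for complement fragment C3a, fell by 1.28 ± 0.26 and Igfbp2, which binds insulin-like growth factors, by 1.25 ± 0.19. The rest of the 15 largest falls were dim and less stable. P3h2 (-1.37 ± 0.31) lost its call without day 1 (-1.30), and H2-T24 (-1.10 ± 0.27) without day 1, without day 3 and without the TCDD array of replicate 1 (-1.08 to -0.86). Out of 12 fits that left out 1 day or 1 array, Fhit (-1.33), Acvr2b (-1.26), Tacr2 (-1.10) and Abca12 (-1.07) lost their calls in 10 each, Prdm6 (-1.16) in 9 and Zscan20 (-1.04) in 6, with values from -1.57 to -0.68 where lost.

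Genes of B cell identity and antigen receptor signalling changed in both directions. Of 34 kept, 6 were called higher (17.6%) and 4 lower (11.8%), against 2.75% and 1.4% of all genes tested, with a median of -0.07. Most of the 6 act in signalling. Ptpn6, the phosphatase SHP-1 that dampens receptor signalling, had 13.30, 13.59, 13.50 and 13.54 with TCDD, against 12.08, 12.53, 12.54 and 12.60 with DMSO (1.05 ± 0.14, adjusted p = 3.44e-06). Its other probe set gave 0.51 without a call. Blk, a B cell kinase of the Src family, had 10.69, 11.09, 10.64 and 10.91 with TCDD, against 9.58, 10.04, 9.70 and 10.03 with DMSO (1.00 ± 0.19, adjusted p = 0.000481). Cd69, an early activation antigen, had 12.13, 12.08, 11.76 and 11.69 with TCDD, against 10.92, 11.08, 10.92 and 10.99 with DMSO (0.94 ± 0.14, adjusted p = 1.44e-05). Each of these genes was higher on all days with no overlap. Pik3cd, a lymphocyte PI3 kinase subunit, rose by 0.85 ± 0.19 on its brightest probe set, and its other 4 probe sets above the filter gave 0.84 (adjusted p = 0.0178) and, without a call, 0.70, 0.64 and -0.18. Its call was lost without day 2 (0.83). Plcg2, a phospholipase of the receptor cascade, rose by 0.30 (adjusted p = 0.0231), and Irf8, which is also in the interferon list, by 0.74. Those lower were the transcription factor genes Bcl11a (-0.60, adjusted p = 0.00649) and Ikzf3 (-0.28, adjusted p = 0.0146), Ms4a1, which encodes CD20 (-0.50, adjusted p = 0.00586), and the inhibitory Fc receptor gene Fcgr2b (-0.40, adjusted p = 0.0188). Calls were lost without day 2 and without the DMSO array of replicate 1 for Bcl11a (-0.61 to -0.48), without day 2 or day 3 for Ms4a1 (-0.45), and in 4, 6 and 7 of 12 fits that left out 1 day or 1 array for Ikzf3, Fcgr2b and Plcg2. Without day 2 the list had 3 called higher and 0 lower.

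Among regulators of plasma cell differentiation, Prdm1 and Xbp1 were called higher. Prdm1, which encodes Blimp-1, had 10.63, 10.50, 10.48 and 10.81 with TCDD, against 10.25, 10.08, 9.82 and 10.30 with DMSO. It was higher by 0.49 ± 0.14 (adjusted p = 0.0282), a call lost in 7 of 12 fits that left out 1 day or 1 array (0.39 to 0.53). Those fits held no block, and with the replicate block over all arrays limma gave 0.49 ± 0.08 (adjusted p = 0.000103). Xbp1, the factor of the secretory programme, had 12.74, 12.69, 12.58 and 12.60 with TCDD, against 12.27, 12.25, 12.17 and 12.07 with DMSO (0.46 ± 0.07, adjusted p = 8.74e-06). Its groups lay apart, and both lay below the untreated cells, at 13.19 to 13.52. Other probe sets of Xbp1 gave 0.37, 0.37 and 0.47, and none of them was called in the fit over all probe sets, with its wider adjustment. Prdm1 and Xbp1 were the 2 genes called among 17 kept of the plasma cell programme (11.8%, against 2.75% of all genes tested called higher). With the replicate block 2 were higher and 1 lower, where 4.92% and 3.47% of all genes tested were. Irf4, which is needed for plasma cells, had 12.85, 12.81, 12.64 and 12.76 with TCDD, against 13.03, 13.05, 13.13 and 13.18 with DMSO. Its difference of -0.33 ± 0.11 passed with the replicate block (adjusted p = 0.0442) and not in the main fit (adjusted p = 0.0804).

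Bach2, a repressor of plasma cell differentiation, had 7.76, 7.97, 7.51 and 7.45 with TCDD, against 7.09, 6.68, 6.51 and 5.37 with DMSO. The groups did not overlap, but the vehicle arrays spread widely. The difference of 1.26 ± 0.39 did not pass in the main fit (adjusted p = 0.0625). It passed with the replicate block (adjusted p = 0.0375) and in some other settings. Pax5, the B cell identity factor, differed by -0.21 ± 0.30 with signals near the filter on dim genes, Ighm, the IgM heavy chain, by -0.28 ± 0.27 with other probe sets above the filter from -0.50 to 0.25, and Jchain, which joins IgM units, by 0.00 ± 0.33. None of these 3 passed. Bcl6 lay below the filter. Among the unfolded protein response and secretion genes, 2 of 32 kept were higher (6.25%, against 2.75% of all genes tested) and 0 lower. They were Ssr3 (0.35 ± 0.08), part of the translocon, and Edem1 (0.32 ± 0.08), which acts in the disposal of misfolded proteins. The call of Ssr3 was lost without day 2, day 3 or day 4 (0.33 to 0.35) and that of Edem1 without day 1, day 2 or day 3 (0.30 to 0.35).

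Of 35 kept interferon response genes, 5 were called higher (14.3%, against 2.75% of all genes tested) and 0 lower, and 30 did not pass. The TCDD array was above the vehicle array on all 4 days in 26 of the 35, called genes included, where it was in 17.3% of all genes tested. The median difference of the 35 was 0.40. Gbp2, a guanylate-binding protein induced by interferon gamma, had 13.64, 13.66, 13.61 and 13.32 with TCDD, against 12.83, 12.86, 13.11 and 12.49 with DMSO (0.74 ± 0.18, adjusted p = 0.0124). Irf1, a transcription factor of the interferon gamma response, had 11.44, 11.82, 11.78 and 11.81 with TCDD, against 10.65, 11.04, 11.30 and 10.98 with DMSO (0.72 ± 0.15, adjusted p = 0.00209). Igtp, an interferon-induced GTPase, rose by 0.52 ± 0.12, Irf8 by 0.74 ± 0.20 and Ddx58, the RNA sensor RIG-I, by 0.74 ± 0.20. The call of Irf1 was lost without day 2 (0.70), that of Igtp without day 3 (0.53) and that of Gbp2 without day 1, day 2, day 3 or the DMSO array of replicate 4 (0.62 to 0.81). Those of Irf8 and Ddx58 were lost in 8 and 7 of the 12 fits that left out 1 day or 1 array. With the replicate block 9 members were higher and 1 lower, where 4.92% and 3.47% of all genes tested were. Without day 2 or without day 3 the count higher was 1, where 168 and 196 of all genes tested were higher. Without 4 arrays of other groups that stand apart in technical measures it was 10, where 430 of all genes tested were.

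Few genes of growth passed the test. Myc, the growth factor-responsive transcription factor, had 12.15, 12.05, 12.10 and 12.16 with TCDD, against 12.87, 12.67, 12.78 and 12.87 with DMSO. Its groups lay far apart compared with their spread (-0.68 ± 0.09, adjusted p = 2.1e-06). In the list of MYC and ribosome biogenesis, 2 of 25 were called lower (8.0%, against 1.4% of all genes tested) and 0 higher. In this list 19 were lower on all 4 days, where 17.9% of all genes tested were, and the median was -0.17. Polr1b, a subunit of RNA polymerase I, was the other (-0.39 ± 0.10), and its call was lost in 5 of 12 fits that left out 1 day or 1 array (-0.41 to -0.33). Among 14 kept cyclin-dependent kinase (CDK) inhibitors, D cyclins and related genes, 3 were higher (21.4%) and 1 lower (7.14%). These shares were 2.75% and 1.4% over all genes tested. Cdkn1b, which encodes the CDK inhibitor p27, had 10.08, 9.50, 9.27 and 9.68 with TCDD, against 8.96, 8.26, 7.87 and 8.40 with DMSO (1.26 ± 0.21, adjusted p = 7.95e-05). Levels shifted from day to day in both groups alike, and its other probe set gave 0.63 without a call.

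Cdkn2d, the CDK inhibitor p19, rose by 0.61 ± 0.12 and Ccng2, an atypical cyclin, by 0.75 ± 0.21, a call lost in 8 of 12 fits that left out 1 day or 1 array (0.65 to 0.89). Cdk6 fell by 0.40 ± 0.10, which was lost without day 2, day 3 or day 4 (-0.41 to -0.37). By limma, 0 of 28 kept genes of G1/S and DNA replication, 0 of 25 of G2/M and mitosis and 0 of 18 p53 targets were called. At an unadjusted p under 0.05, which 13.9% of all genes tested reached, there were 3, 2 and 4, and with the replicate block 2, 1 and 2. In the BCL2 and apoptosis list, 2 of 21 were higher (9.52%) and 1 lower (4.76%), against 2.75% and 1.4% of all genes tested. With the replicate block 3 and 2 were, against 4.92% and 3.47% of all genes tested. Bmf, a pro-apoptotic BH3-only gene, rose by 1.16 ± 0.19 on its brightest probe set and by 0.32 on another above the filter, where it was not called. Bid, another BH3-only gene, had 10.96, 10.77, 10.98 and 10.98 with TCDD, against 11.52, 11.34, 11.60 and 11.52 with DMSO (-0.57 ± 0.09, adjusted p = 6.54e-05). Apaf1, the scaffold of the apoptosome, was higher by 0.45 ± 0.14, a call lost in 10 of the 12 fits (0.40 to 0.47).

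Surface receptors of the immune system shifted in both directions. Among co-stimulatory and inhibitory receptors, 3 of 26 were higher and 3 lower (11.5% each), against 2.75% and 1.4% of all genes tested. Ctla4, an inhibitory receptor best known from T cells, had 9.67, 9.10, 9.66 and 9.26 with TCDD, against 7.95, 7.54, 7.62 and 7.59 with DMSO (1.75 ± 0.21, adjusted p = 3.35e-07). Untreated cells, at 9.60 to 9.92, overlapped the TCDD arrays, and the vehicle arrays were below both. Cd96 (0.82 ± 0.19) and Cd274, which encodes the ligand PD-L1 (0.69 ± 0.19), were also higher. Lair1 (-0.86 ± 0.17) and Btla (-0.82 ± 0.17), both inhibitory receptors, and Ly9 (-0.41 ± 0.09) were lower. Calls were lost without day 2 for Btla (-0.78), without day 3 for Ly9 (-0.34), without day 1, 2 or 3 for Cd96 (0.73 to 0.82) and in 7 of 12 fits for Cd274 (0.63 to 0.76).

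Of 34 kept cytokine and chemokine receptors, 3 were higher (8.82%) and 2 lower (5.88%), against 2.75% and 1.4% of all genes tested. Besides Csf1r the rises were those of Ccr1, a receptor for inflammatory chemokines (1.01 ± 0.18), and S1pr1, which guides lymphocytes out of lymphoid organs (0.71 ± 0.18). Cxcr4, the receptor for the retention signal CXCL12, had 9.25, 9.08, 9.54 and 9.44 with TCDD, against 10.02, 10.09, 10.20 and 10.37 with DMSO (-0.84 ± 0.15, adjusted p = 0.000289). With Ccr7 it made up the falls, and the groups of both lay apart. In the TNF family, Tnfrsf18, or GITR, rose by 0.94 ± 0.18, the co-stimulatory ligand gene Tnfsf9 by 0.51 ± 0.12 and Tnfrsf13c, the BAFF receptor, by 0.49 ± 0.11. Tnfrsf13b, or TACI, had 13.31, 13.40, 13.52 and 13.57 with TCDD, against 13.98, 14.03, 14.14 and 14.17 with DMSO (-0.63 ± 0.08, adjusted p = 1.01e-06). These 4 stood among 23 kept members, 3 higher and 1 lower, or 3 and 2 with the replicate block. Tnfrsf13c and Tnfrsf13b both encode receptors of the B cell survival factor BAFF, and Tnfrsf17, the gene of another, lay below the filter. Without single days calls were lost for S1pr1 (days 1, 2 and 3), Tnfrsf18 (day 3, 0.85), Tnfsf9 (days 1 and 2) and Tnfrsf13c (days 3 and 4), with values of 0.69 to 0.72 for S1pr1, 0.48 to 0.50 for Tnfsf9 and 0.44 to 0.47 for Tnfrsf13c.

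Adhesion genes were higher in 4 of 29 cases (13.8%) and lower in 3 (10.3%), against 2.75% and 1.4% of all genes tested. Besides Plet1, the rises were those of Itgav, an integrin chain (0.55 ± 0.13), the tetraspanin Cd151 (0.47 ± 0.11) and the adhesion molecule Icam1 (0.38 ± 0.08). Itgax, the integrin chain CD11c (-0.74 ± 0.18), the adhesion molecule Vcam1 (-0.65 ± 0.14) and Itgal, an integrin chain (-0.23 ± 0.07), were lower. Proteases and their inhibitors were higher in 4 of 22 cases (18.2%) and lower in 0: besides Spint1 and St14 these were Adam8, a metalloprotease (0.86 ± 0.10), and Serpinb1a, an inhibitor of elastase (1.49 ± 0.39). Glycosyltransferases were called in both directions, 2 of 32 each way (6.25%). Mgat4a, which branches N-glycans, had 10.29, 10.29, 10.23 and 10.13 with TCDD, against 9.19, 9.25, 9.36 and 9.12 with DMSO (1.00 ± 0.09, adjusted p = 1.21e-09). Fut8, which adds core fucose, had 10.11, 10.08, 9.95 and 10.06 with TCDD, against 11.07, 10.78, 10.76 and 10.83 with DMSO (-0.81 ± 0.11, adjusted p = 2.06e-06). The arrays of each group were within a narrow range for both genes. The other 2 were C1galt1 (0.52 ± 0.15) and B3gnt2 (-0.44 ± 0.12), whose calls were lost in 8 and 6 of 12 fits that left out 1 day or 1 array. Calls were lost without day 1 for Vcam1 (-0.62), days 1 or 2 for Itgax (-0.69 and -0.66), days 2 or 4 for Itgav (0.55 and 0.56), day 2 for Cd151 (0.43), in 7 of 12 fits that left out 1 day or 1 array for Serpinb1a (1.23 to 1.47) and in 11 for Itgal (-0.27 to -0.20).

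Immediate early and stress-signalling genes were higher in 4 of 23 cases (17.4%) and lower in 1 (4.35%), or in 6 and 2 with the replicate block. Over all genes tested the shares were 2.75% and 1.4%, or 4.92% and 3.47% with the block. Besides Dusp5 the genes called without the block were Klf6 (0.91 ± 0.20), a zinc finger factor, Ier3 (0.63 ± 0.17), Dusp4 (0.58 ± 0.17) and, lower, Dusp2 (-0.76 ± 0.16), both phosphatases of MAP kinases. The calls of Ier3 and Dusp4 were lost in 11 and 10 of 12 fits that left out 1 day or 1 array, that of Klf6 without day 2 (0.87) and that of Dusp2 without day 2 or 3 (-0.76 and -0.72). Bhlhe40, a basic helix-loop-helix repressor, had 12.03, 12.33, 12.76 and 12.60 with TCDD, against 10.93, 11.08, 11.82 and 11.78 with DMSO (1.03 ± 0.18, adjusted p = 0.000135). Both groups were higher on days 3 and 4, and each TCDD array was above the vehicle array of its day. Myb, a progenitor transcription factor, rose by 0.57 ± 0.08 and Klf13 by 0.80 ± 0.14, the 2 called of 21 E proteins, Id proteins and lymphoid factors (9.52%). With the replicate block 3 were higher and 2 lower.

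Metabolic lists showed single genes. Pfkp, a phosphofructokinase of glycolysis, had 12.73, 12.92, 13.04 and 12.87 with TCDD, against 11.82, 11.88, 12.11 and 11.89 with DMSO (0.97 ± 0.10, adjusted p = 9.19e-09), the 1 called of 21 (4.76%). Other probe sets of Pfkp gave 0.72 and 0.38, and neither was called. Cyp51, a cytochrome P450 of cholesterol synthesis, rose by 0.69 ± 0.11 (adjusted p = 6.31e-05), the 1 called of 25 (4.0%). Nqo1 was the 1 called of 21 genes of the NRF2 and antioxidant list (4.76%), and Irak3, a brake on Toll-like receptor signalling (0.54 ± 0.14), the 1 called of 37 in its list, or 2.70%. A single call in lists of this size is near the share of all genes tested, at 2.75%. With the replicate block the glycolysis list had 2 higher and 1 lower, the cholesterol list 1 and 2, the NRF2 list 2 and 2 and the Toll-like receptor list 2 and 5. With that block 4.92% of all genes tested were higher and 3.47% lower. The call of Irak3 was lost in 7 of 12 fits that left out 1 day or 1 array (0.42 to 0.58). By limma, 0 genes were called among 19 of the integrated stress response, 22 of TGF-beta signalling and 14 of MHC class II presentation. At an unadjusted p under 0.05 there were 4, 1 and 1, against 13.9% of all genes tested, and with the replicate block 1, 1 and 0.

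**Figure D4:**
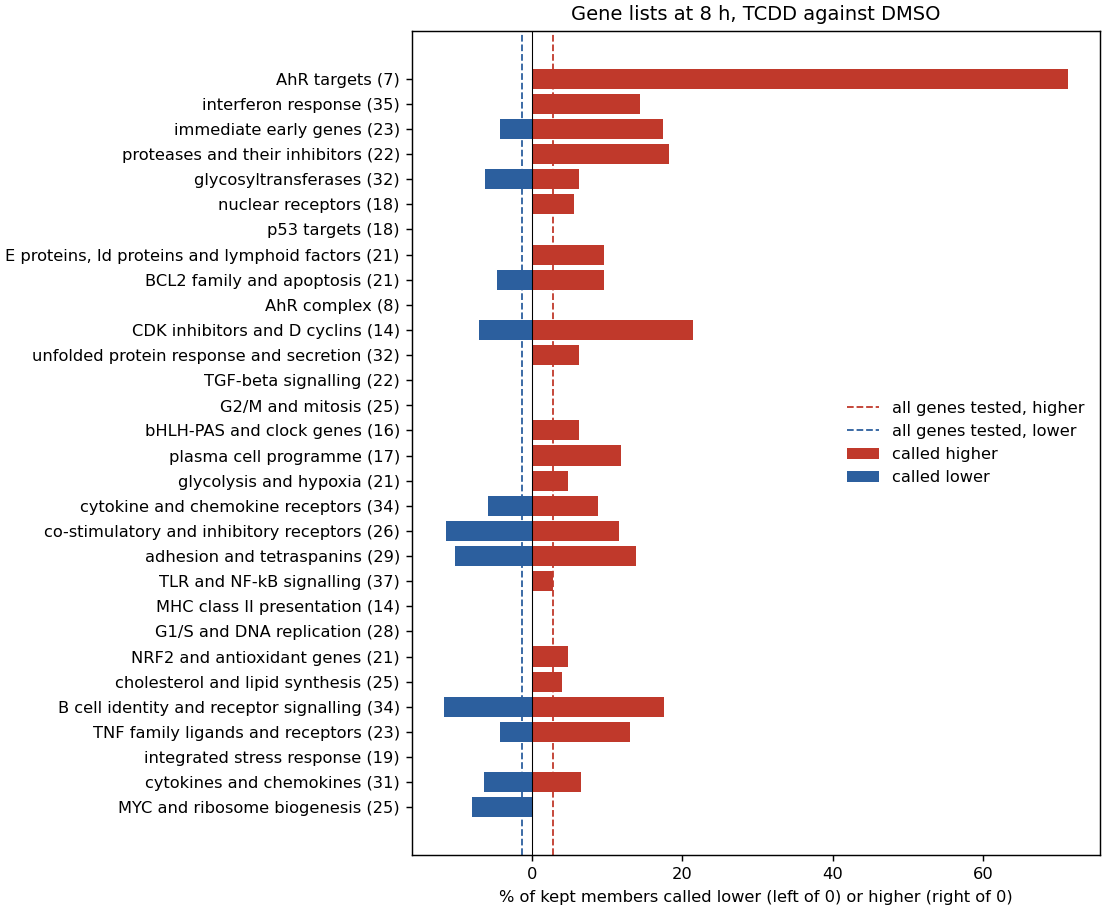
Percent of kept members of each gene list called higher (red, right of 0) or lower (blue, left of 0) with TCDD at 8 h, lists ordered by the median difference of their members, with the number of kept members in brackets and dashed lines at the shares of all genes tested, 2.75% and 1.4%. AhR targets stand out at 71.4% higher, and several lists such as B cell identity and adhesion hold calls on both sides.

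Of the B cell markers, 7 of 8 measured were above the filter on all 8 arrays, the other being Pax5. Their summed signals ran from 28192 to 30374 with TCDD and from 27688 to 32519 with DMSO. Csf1r and Pdgfrb are also known as markers of myeloid cells and of fibroblasts. The summed signals of 8 myeloid markers ran from 3857 to 5075 with TCDD and from 2731 to 4205 with DMSO. Those of 5 fibroblast markers ran from 475 to 708 with TCDD and from 206 to 279 with DMSO. These sums hold Csf1r and Pdgfrb themselves, so they restate the rises of these genes, and sums without them were not made. Apart from Csf1r and Pdgfrb, no marker of either type was called. Of the 8 myeloid markers, Csf1r, Adgre1, Cd68 and Fcer1g were above the filter on all 8 arrays. Adgre1 ran from 9.02 to 9.42 with TCDD and from 8.49 to 8.87 with DMSO, with no overlap (0.61), while Cd68 and Fcer1g overlapped (0.03 and -0.04). Itgam, Lyz2, Col3a1 and Dcn had group means below the filter, and Cd14, Mpo, Col1a1 and Col1a2 passed it on some arrays. The part of these cell types in the results was not tested. No marker of T cells, NK cells, epithelia or red cells was called.

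Several of the genes that rose lie next to each other on a chromosome, a pattern noticed after the values were seen. Of 328 genes called higher that have a place in the GRCm38.p6 gene table, 55 (16.8%) had a directly neighbouring tested gene that was also called higher, against 632 of 11952 (5.29%) of all placed genes. For genes called lower the share was 10 of 168 (5.95%), against 2.76% of all placed genes. Pdgfrb and Csf1r are such neighbours on chromosome 18. On chromosome 3 a run of 5 genes was higher: Med12l (1.05), Gpr171 (0.94), P2ry14 (2.22), P2ry13 (2.38) and P2ry12 (0.90). On chromosome 10 Plxnc1 (1.09), Cradd (1.12) and Socs2 (1.80), a suppressor of cytokine signalling, were higher together, and on chromosome 19 Jak2 (0.67), Insl6 (1.34), Plgrkt (0.39) and Cd274 (0.69). AhR targets had such partners: Tiparp lies between Ssr3 (0.35) and Lekr1 (1.13), Cyp1b1 beside Hnrnpll (0.60) and Ahrr beside Exoc3 (0.55). Of these, Plgrkt, Cd274 and Lekr1 lost their calls in 10, 7 and 6 of 12 fits that left out 1 day or 1 array. Med12l, Hnrnpll and Cyp1b1 lost theirs without day 2 or day 3, and Ssr3 without day 2, day 3 or day 4. Some neighbours are related genes, and whether their probes share sequence was not tested.

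The changes at 8 h were largely found again at 12 h, on other arrays from cultures of the same days. Of the 329 genes called higher at 8 h, 270 (82.1%) were also called higher at 12 h, where 6.07% of all genes tested were. Of the 168 called lower, 106 (63.1%) were called lower at 12 h, where 3.14% of all genes tested were, and 0 genes were called in the opposite direction. These 376 genes became 725 with the replicate block and 168 without day 2. The test of the difference itself, the effect at 8 h minus that at 12 h, called 0 genes by limma (smallest adjusted p = 0.091), with 502 (4.19%) at an unadjusted p under 0.05. With the replicate block it called 2. The smallest p-values belonged to Gsn, which encodes the actin-severing protein gelsolin (0.47 ± 0.16 at 8 h, 1.60 at 12 h), to Cytip (0.20 ± 0.09 at 8 h, 0.84 at 12 h), to 3 interferon-induced genes and to Gnrhr. Gsn was not called at 8 h in the main fit but was called higher by limma with the replicate block (adjusted p = 0.0424). Ifit1 differed by 0.48 at 8 h and 2.31 at 12 h, Ifit2 by 0.34 and 1.62 and Ifit3 by 0.40 and 1.84 at the same times, and none of the 3 was called at 8 h, except Ifit3 in a fit of only the 8 arrays with the replicate block.

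Fewer of these genes were called at later times. At 24, 36 and 48 h, 174, 123 and 126 of the 329 genes called higher at 8 h were called higher, where 4.8%, 3.49% and 4.31% of all genes tested were. Of the 168 genes called lower, 52, 33 and 46 were called lower at these times, where 2.77%, 2.4% and 4.54% were. A few were called in the opposite direction: 2, 8 and 12 of those higher, and 1, 4 and 12 of those lower. The effect at 8 h differed from the mean effect at 24, 36 and 48 h in 414 genes (3.46% of those tested), or in 941 with the replicate block and in 111 without day 2. The difference was positive in 207 of the 414 and negative in 207. Of the 497 genes called at 8 h, 148 (29.8%) were in this set. Genes chosen for their call at 8 h share the 8 h arrays with this difference, so a larger effect at 8 h is favoured among them.

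Among the genes named, enzymes, transcription factors, a receptor and a cell cycle inhibitor had a larger effect at 8 h than on average at 24, 36 and 48 h. Mgat4a had rises of 1.00 at 8 h and 0.78 at 12 h, with -0.04, -0.14 and -0.04 at 24, 36 and 48 h (8 h minus later 1.08 ± 0.11, adjusted p = 1.09e-07). Rhoq, a small GTPase, was higher by 0.81 at 8 h and by 0.74 at 12 h, with 0.07, -0.47 and -0.46 at the later times (1.10 ± 0.12, adjusted p = 2.35e-07). Xbp1 was higher by 0.46 at 8 h and by 0.59 at 12 h, with -0.03, -0.27 and -0.39 later (0.69 ± 0.08, adjusted p = 4.41e-07). Prdm1 was higher by 0.49 at 8 h, with 0.35 at 12 h and -0.18, -0.57 and -0.06 later (0.77 ± 0.16, adjusted p = 0.00254). By limma, Rhoq and Xbp1 were called lower at 36 and 48 h and Prdm1 at 36 h. Ccr7 differed by -1.06 at 8 h and -0.64 at 12 h, with -0.09, 0.10 and -0.29 later (-0.96 ± 0.11, adjusted p = 8.07e-07). Myc differed by -0.68 at 8 h and -0.47 at 12 h, with 0.17, 0.28 and 0.17 later (-0.89 ± 0.11, adjusted p = 9.12e-07). Cdkn1b differed by 1.26 at 8 h and 0.54 at 12 h, with 0.32, -0.24 and -0.13 later (1.28 ± 0.24, adjusted p = 0.00107). The differences of all these genes at 8 h and at later times come from separate arrays, each time with its own vehicle arrays.

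In other genes the effect at 8 h was the smaller one. Cyp1b1 had a rise of 1.51 at 8 h and rises of 2.35, 3.33 and 2.92 at 24, 36 and 48 h (-1.36 ± 0.40, adjusted p = 0.0479). Ifng had a rise of 1.24 at 8 h and rises of 2.82, 2.86 and 3.36 later (-1.77 ± 0.37, adjusted p = 0.00338), and Cd96 had rises of 0.82 at 8 h and of 2.28, 2.05 and 2.56 later (-1.48 ± 0.22, adjusted p = 4.33e-05). St8sia4, a sialyltransferase, and Cyb561a3 were not called at 8 h (0.33 and -0.33) and had later differences of -1.26, -1.73 and -1.56 for St8sia4 and of 0.69, 0.82 and 1.09 for Cyb561a3. With the replicate block Cyb561a3 was called lower at 8 h (adjusted p = 0.0338). Cyp1a1, Ahrr, Tiparp and Csf1r showed no called difference between 8 h and the later times (adjusted p of 0.518 or more), which does not show that they were equal.

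**Figure D5:**
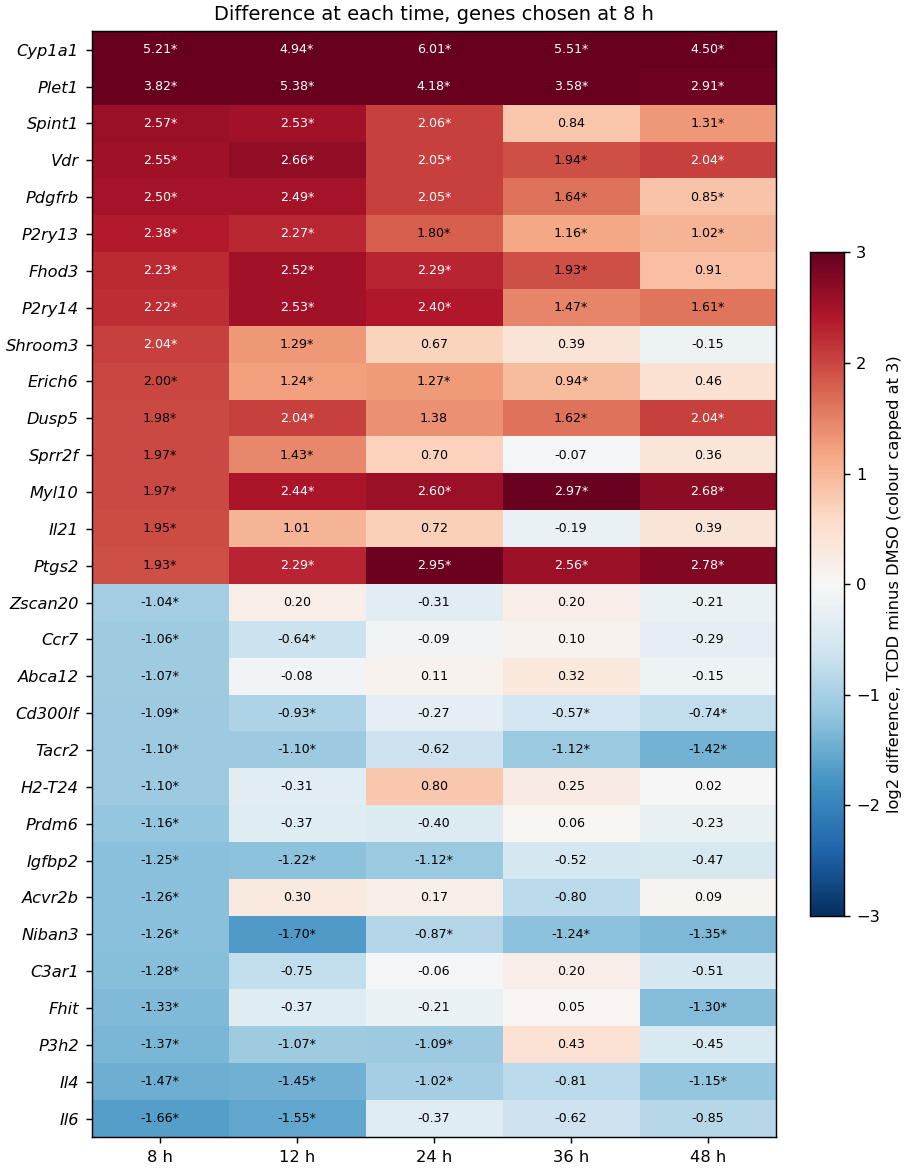
Log2 difference, TCDD minus DMSO, at 8, 12, 24, 36 and 48 h (columns) for the genes with the 15 largest rises and the 15 largest falls at 8 h (rows, ordered by the 8 h value), red for higher and blue for lower with TCDD, an asterisk marking an adjusted p under 0.05. Cyp1a1 and Plet1 keep high values in every column, and Shroom3 and Il21 fade after 8 h. The falls of Il6 and Ccr7 are called at 8 and 12 h but not later. For Il6 the effect at 8 h minus the later mean did not pass limma's test (-1.05 ± 0.34, adjusted p = 0.0867).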

How the data were processed

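The authors deposited linear intensities from single-colour Affymetrix mouse arrays. GCOS 1.0 is the software named in the submitters' processing notes. After trimming 2% at each end, every array averages 500, and no source used here gives further steps. All 44 arrays were quantile normalized and transformed to log2(signal + 16). A gene's value is that of its brightest probe set (by mean over arrays, probe sets with 1 gene symbol only). Calls of a gene's other probe sets come from a separate fit over all 45037 probe sets without a filter, with a wider adjustment. Genes were kept if their highest group mean passed 6.21, the median of all values, which left 11970 of 18193.

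Group means of all 11 groups were fitted together with limma 3.58.1 (R 4.3.3), with no block, and tested two-sided with Benjamini-Hochberg adjustment at 0.05. The p-values rest on the spread among cultures of a single line. The design text has each replicate handled on its own day, so equal numbers mean the same day. Deviations of same-day TCDD and DMSO arrays at 8 h correlated with r from 0.164 to 0.394, above 0.1 in all 4 pairs. Arrays of different days had a median r of -0.115, but TCDD replicate 4 with DMSO replicate 3 reached 0.198, above the lowest same-day value. By the design text the numbers pair the samples. Values with the replicate day as a block stand beside results whose call they change, or whose count they move more than 1.5 times, and beside Nqo1 and Prdm1. The 12 fits that left out 1 day or 1 array held no block, so a call lost there is lost in a fit that ignores the pairing by day.

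The 30 gene lists, the 7 marker lists and the comparison itself were chosen with earlier results of these data known. Genes named are 24 fixed ones, the 15 largest called rises and falls with the same sign in all 4 pairs, up to 5 called members per list, and the 6 smallest p-values of each difference between times. Promoters shown are those of the 5 largest rises found in the RefSeq table (GRCm38.p6). Cyp2s1, Tnfrsf17, Bcl11a, Ikzf3, Ms4a1, Fcgr2b, Plcg2, Ly9, Icam1, Itgal, the markers and the chromosomal neighbours were named after their values were seen. Simulated data over 11970 genes recovered 50%, 76%, 98% and 100% of genes changed 1.5-, 2-, 3- and 4-fold, with 9 unchanged genes called. The simulated noise was independent between genes and arrays and held no differences between days, so these figures need not hold for the real arrays.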

Additional observations from a re-analysis of the deposited data

Results flagged for a closer look

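Among the genes named, 218 groups of 4 arrays were examined for 1 array far from the other 3, meaning a gap to the nearest array that takes up most of the range of the group (Dixon's test at the 95% level). Chance gives about 1 such array in 20 groups, and 18 were found. TCDD 8 h replicate 1 held log2 signals of Erich6 (7.31, others 6.90 to 6.97), C3ar1 (6.05, others 7.38 to 7.46), Cd274 (10.07, others 10.28 to 10.29) and Irf1 (11.44, others 11.78 to 11.82). TCDD 8 h replicate 2 held log2 signals of Bid (10.77, others 10.96 to 10.98) and Klf13 (8.00, others 7.60 to 7.66). TCDD 8 h replicate 3 held log2 signals of Igtp (14.04, others 13.92 to 13.94) and Ifit1 (9.41, others 8.90 to 8.98). TCDD 8 h replicate 4 held log2 signals of Igfbp2 (7.21, others 6.90 to 6.92), Tnfsf9 (12.64, others 12.59 to 12.59), Gbp2 (13.32, others 13.61 to 13.66) and Gsn (9.95, others 9.71 to 9.73). DMSO 8 h replicate 1 held log2 signals of Myl10 (5.05, others 5.57 to 5.64), Fhit (4.85, others 6.13 to 6.15), Btla (11.50, others 11.18 to 11.19), Ptpn6 (12.08, others 12.53 to 12.60) and Apaf1 (9.90, others 9.49 to 9.52). DMSO 8 h replicate 4 held log2 signals of Dusp4 (7.86, others 7.54 to 7.58). The low DMSO signal of Fhit makes its day 1 difference the smallest of the 4, at -0.51 against -1.76 to -1.42 in the other 3 pairs. The low TCDD signal of C3ar1 makes its day 1 difference the largest of the 4, at -1.77.

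In 45 of the named genes the effect at 8 h differed from the mean effect at 24, 36 and 48 h by limma's test of that difference; values are 8 h minus later on the log2 scale. Genes named for a call at 8 h share those arrays with the difference, which favours a larger effect at 8 h. Of genes called higher at 8 h, the effect was more positive at 8 h for Prdm1 (0.77), Xbp1 (0.69), Spint1 (1.17), P2ry13 (1.05), Shroom3 (1.73), Erich6 (1.11), Sprr2f (1.64), Il21 (1.64), S1pr1 (0.71), Klf6 (1.23), Ier3 (0.71), Dusp4 (1.25), Ssr3 (0.41), Cdkn1b (1.28), Ccng2 (1.21), Cdkn2d (0.87), Apaf1 (0.55), Pfkp (0.55), Mgat4a (1.08), Klf13 (0.87) and Rhoq (1.10). Of these, Dusp4, Xbp1, Rhoq, Prdm1, Cdkn2d and Ccng2 were called lower at 1 or more later times. Dusp4 differed by 0.58 at 8 h and by -0.72, -0.49 and -0.81 at 24, 36 and 48 h, so its effect was not larger in size at 8 h. The effect was smaller at 8 h for Cyp1b1 (-1.36), Ifng (-1.77), Cd96 (-1.48) and Irf8 (-0.99). The effect was more negative at 8 h for each of these 13 genes called lower: Myc (-0.89), C3ar1 (-1.16), H2-T24 (-1.45), Cd300lf (-0.56), Ccr7 (-0.96), Tnfrsf13b (-0.42), Lair1 (-1.19), Btla (-0.82), Dusp2 (-0.63), Polr1b (-0.42), Bid (-0.64), Fut8 (-0.65) and B3gnt2 (-0.68). Genes not called at 8 h that differed were Il10 (-0.42), Gsn (-1.18), Ifit1 (-1.51), Ifit2 (-1.90), Ifit3 (-1.87), St8sia4 (1.84) and Cyb561a3 (-1.19).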

How the results depend on the processing

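The counts of 329 genes higher and 168 lower became 589 and 415 with the replicate block, and with only the 8 arrays the count lower was 84. Leaving out 4 arrays of other times (replicate 4 of DMSO 12 h, replicate 2 of DMSO 48 h, and replicates 3 and 4 of the untreated cells) gave 270 genes lower, and the cause was not tested. Of these, the first and the last had the highest median signals (87.6 and 98.9 as deposited), and the others the highest 3′ to 5′ log2 ratios of Tfrc (3.12 and 3.34). Leaving out 1 day or 1 array gave 168 to 290 higher and 63 to 143 lower, with the fewest higher without day 2 and the fewest lower without day 3. These smaller fits hold fewer arrays. The count of genes called at 8 h and at 12 h in the same direction, 376, was 725 with the replicate block and 168 to 335 with 1 day or array left out, lowest without day 2. For 8 h minus 12 h, 0 genes became 2 with the replicate block, 2 on values as deposited, 1 with the mean of probe sets, 1 over all probe sets and 2 with an intensity trend, and 0 to 2 when 1 day or array was left out. For 8 h minus the later mean, 414 became 941 with the replicate block and 625 without the 4 arrays, and was 111 to 372 with 1 day or array left out, lowest without day 2.

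Of 92 named genes that were called, 42 kept the call in each of the other settings they were fitted in and 48 in the 12 that left out a day or an array. None of the 92 changed sign, and Jchain, at 0.00 and not called, ran from -0.14 to 0.09. Bach2, Irf4, Gsn and Cyb561a3 gained a call with the replicate block. Bach2 also gained it on the values as deposited (1.28), with a pseudocount of 64, with the mean of probe sets and without the DMSO array of replicate 1. Without the 4 arrays of other times Bach2, Irf4 and Gsn gained a call. With only the 8 arrays 28 calls were lost, among them those of Bhlhe40, C3ar1, Cdkn2d, Irf1 and P3h2, and with the block added 15, including that of Myb. The mean of probe sets lost 13: Acvr2b, Abca12, Irak3, Irf8, Pik3cd, Edem1, Ccng2, Bmf (0.41), Apaf1, Itgav, Cd151, Fut8 (-0.40) and C1galt1. The values as deposited lost Fhit, Tacr2, Prdm6 and Abca12, a pseudocount of 1 lost Cyp1b1 (1.68) and Tacr2, a pseudocount of 64 lost 6 and no filter 8. The share of genes higher with a neighbour higher was 12.3% with only the 8 arrays, against 3.65% of all placed genes, and 12.6% without a filter, against 2.97%. The 4 arrays per group limit precision, and genes near the background of the array have compressed differences.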
